A study of Mus musculus with 12 samples.

Results

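The tube experiment at 200 µM 4-thiouridine (4sU) comprised 4 of the 12 libraries of the series, chosen by their labels: replicates A and B of NIH-3T3 cells that had received 200 µM 4sU for 2 h, and replicates A and B of the same cells without 4sU. NIH-3T3 is an immortalised line of mouse embryonic fibroblasts, labelled wild type in every library. After RNA isolation, iodoacetamide was added to the RNA in a tube so that sites with 4sU were read as C instead of T. The same dose was also given to cells that were fixed in methanol and converted before lysis, as 2 libraries with 200 µM 4sU and 2 without, which differed from the tube libraries in reaction temperature and time as well. A further 2 tube libraries at 800 µM 4sU shared their untreated libraries with the 200 µM comparison. The remaining 2 libraries were methanol-fixed cells at 800 µM 4sU, which were part of the joint fit and are not described further. The labels do not state whether A and B were grown apart, so p-values speak to the spread between these libraries, and that spread may be technical.

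4sU is a uridine analogue that cells take up, phosphorylate and build into RNA while they transcribe. A gene whose RNA turns over fast is soon made up of labelled molecules, and a gene with a stable RNA keeps mostly unlabelled ones, so the new-to-total ratio separates both kinds. Thiolated nucleosides are known to disturb cells at high dose, with nucleolar stress and induction of p53, and labelled RNA can be lost or map less well during library preparation. Total counts and the ratio therefore carry different information: the first says whether a gene's RNA changed, and the second says how much of what was there had been made during the 2 h.

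The 4 libraries held 4542666 and 5676517 counts at 200 µM 4sU, against 3629634 and 4585474 counts without 4sU, and the 12 libraries ranged from 3629634 to 7762635. Of 15217 genes in the deposited table, 11080 had enough counts to be tested. All 10 fibroblast markers were detected, with 9467 and 15280 counts of Col1a1, a collagen chain, at 200 µM against 8889 and 9552 counts without 4sU, and 0 of the 10 passed edgeR's test (3 had an unadjusted p under 0.05, and DESeq2 called 1, which was lower). Col1a2, the partner chain of Col1a1, had 4820 and 7241 counts at 200 µM against 6579 and 7909 counts without 4sU. Lum, the marker with the fewest counts, had 12 and 19 counts at 200 µM against 14 and 3 counts without 4sU. Of the 10 markers, 9 had a log2 change above 0. Of 18 markers of blood, epithelial, endothelial, muscle, fat and neural cells, 11 were in the table and 3 could be tested, with 0 calls. Ptprc, Cdh1, Kdr, Des and Adipoq were at 0 in all 4 libraries, and Krt8, Pecam1 and Cdh5 had at most 5 counts in any. The 3 tested markers were present in every library. Cd68 had 25 and 57 counts at 200 µM against 25 and 14 counts without 4sU. Tubb3 had 28 and 34 against 28 and 26 counts, and Map2 had 51 and 23 against 32 and 33 counts. The summed level of these 3 markers was 22.4 and 19.5 CPM at 200 µM against 20.4 and 14.5 CPM without 4sU. Levels are given as CPM, counts relative to a common library total after scaling by the trimmed mean of M values (TMM).

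Treatment with 200 µM 4sU raised 262 genes (2.36% of those tested) and lowered 154 (1.39%), 416 in all (3.75%), by edgeR's quasi-likelihood test with Benjamini-Hochberg (BH) adjustment at 0.05. These shares, and the median log2 change of 0.03 over all tested genes, are given as the background for every gene list below. The lists were chosen with earlier results of these data known, so a share above this background is no test of a list. Most changes were small: 47 of the rises and 39 of the falls exceeded 2-fold, and the median log2 change was 0.66 among rises and −0.81 among falls. Both 200 µM libraries lay on one side of both libraries without 4sU at all 416 genes, a pattern that 28.6% of all tested genes showed upwards and 21.7% downwards. Most of the 416 calls were lost whichever of the 4 libraries was left out. Such a fit has 1 library in a group, so what the loss owes to a single library and what to fewer libraries cannot be told apart. In 11 genes the call held in every one of 11 alternative settings, leave-one-out fits included, among them the rises of Nr4a1, Angptl4, Slc30a1, Cdkn1a, Gnl3 and Mt2 and the falls of Pbx2, G2e3, Lurap1l and Kif20b. Every other gene described below as risen or fallen lost its call when at least 1 of the 4 libraries was left out.

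**Figure D1:**
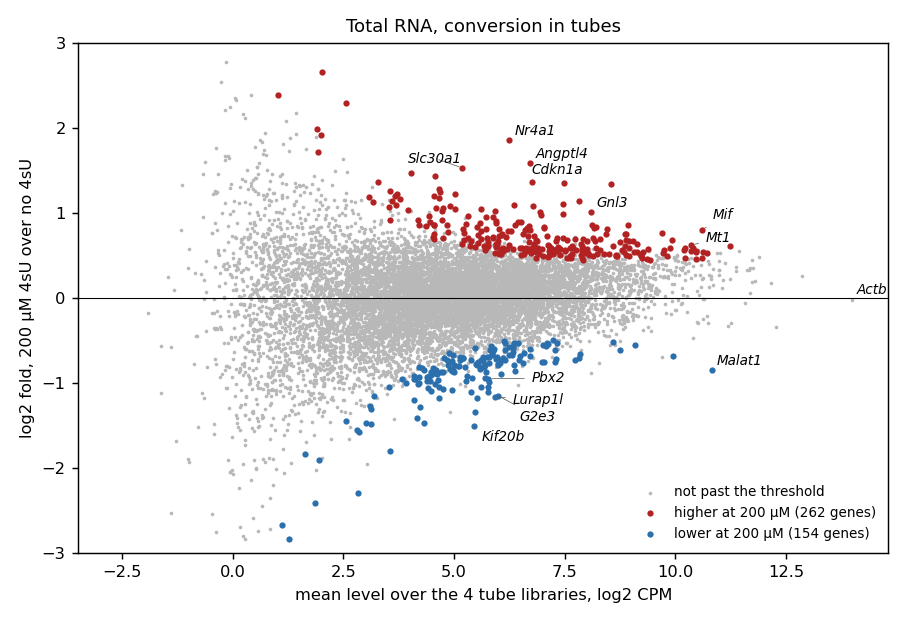
Log2 fold (200 µM 4sU over no 4sU, edgeR) against the mean level over the 4 tube libraries (log2 CPM), with 1 point per tested gene. The 262 genes that rose are in red, the 154 that fell in blue and the rest in grey; 17 genes beyond a fold of 3 on either side, 5 of them past the threshold, lie outside the axis.

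Nr4a1, the immediate-early gene of an orphan nuclear receptor, stood at 104 and 133 CPM at 200 µM, against 41.1 and 25.2 CPM without 4sU. It lies at chr15:101254269-101274795, plus strand (ENSMUSG00000023034; all gene coordinates are GENCODE M21 on GRCm38). Both treated libraries lay far above the untreated ones, with a log2 change of 1.85 (SE 0.19, edgeR BH-adjusted p = 6.5e-05). The deposited ratio was 100% in both 200 µM libraries, so that the whole of the RNA present counted as made during labelling.

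Angptl4 (chr17:33773750-33781830, minus strand), which encodes a secreted inhibitor of lipoprotein lipase, had 148 and 168 CPM at 200 µM, against 53.2 and 52.7 CPM without 4sU. The groups were wide apart and the untreated libraries nearly equal, with a log2 change of 1.58 (SE 0.14, edgeR BH-adjusted p = 1.8e-05). Cdkn1a (chr17:29090976-29100727, plus strand), the p53-induced inhibitor of cyclin-dependent kinases, was measured at 272 and 245 CPM at 200 µM, against 117 and 87.03 CPM without 4sU. Its untreated libraries were farther apart than its treated ones, yet the groups did not overlap and differed by a log2 change of 1.34 (SE 0.16, edgeR BH-adjusted p = 0.000278). Gnl3 (chr14:31012433-31019152, minus strand), which codes for the nucleolar GTP-binding protein nucleostemin, had 375 and 354 CPM at 200 µM, against 191 and 173 CPM without 4sU, without overlap and with a log2 change of 1.01 (SE 0.14, edgeR BH-adjusted p = 0.00143).

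Among the 4 falls that held in every setting, Kif20b (chr19:34922361-34975745, plus strand), a kinesin needed to complete cytokinesis, had 27.1 and 18.9 CPM at 200 µM, against 66.9 and 62.9 CPM without 4sU, with a log2 change of −1.51 (SE 0.19, edgeR BH-adjusted p = 0.000358). G2e3 (chr12:51348061-51376986, plus strand), a ubiquitin ligase gene named for its expression in the G2 phase, was at 39.7 and 39.7 CPM at 200 µM, against 86.6 and 89.5 CPM without 4sU. Its 2 treated libraries were equal to the precision given, and a log2 change of −1.15 (SE 0.15, edgeR BH-adjusted p = 0.00073) separated them from the untreated ones. Lurap1l (chr4:80910646-80955628, plus strand) had 41.5 and 33.2 CPM at 200 µM, against 83.97 and 82.9 CPM without 4sU, with a log2 change of −1.16 (SE 0.15, edgeR BH-adjusted p = 0.00073). Pbx2 (chr17:34591266-34597400, plus strand), a homeobox partner of Hox proteins, had 34.2 and 40.2 CPM at 200 µM, against 70.5 and 73.8 CPM without 4sU, with a log2 change of −0.95 (SE 0.15, edgeR BH-adjusted p = 0.00493). In none of these 4 genes did a treated library reach the lower of the untreated ones.

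**Figure D2:**
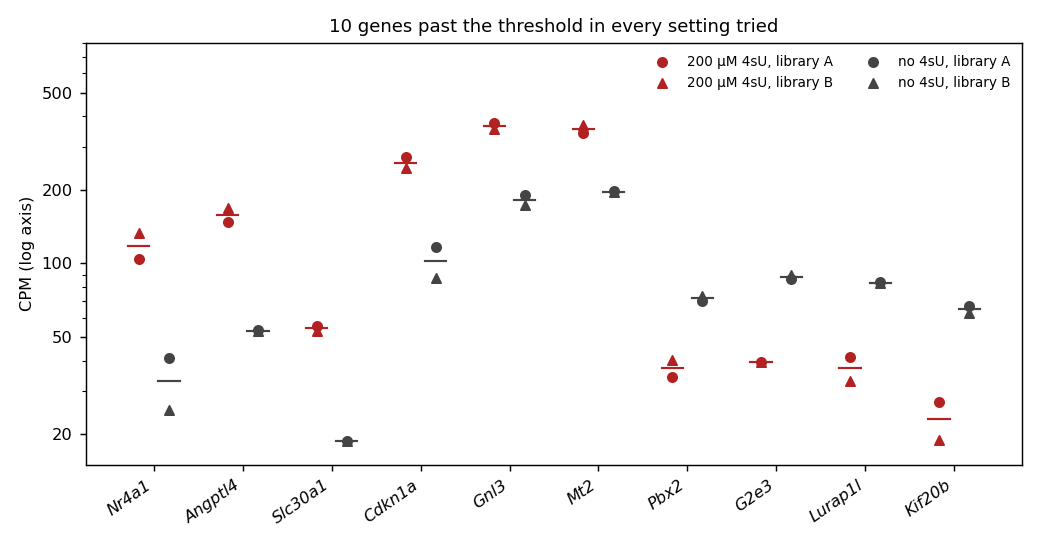
CPM on a log axis of 10 genes that passed in every setting, in 200 µM library A and B (red circle and triangle) and in the libraries without 4sU (black), with a line at each group's mean. The groups are apart in all 10 genes.

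The 3 zinc-responsive genes that passed are shown with their promoters. Their list was drawn up around 1 known circuit, so that all 3 belong to it is no result. In mouse cells the transcription factor MTF1 senses free zinc, binds metal response elements and switches on the metallothioneins, which chelate zinc, and the exporter Slc30a1, which pumps it out of the cell. Slc30a1 had 55.7 and 52.8 CPM at 200 µM, against 18.8 and 18.8 CPM without 4sU. The untreated libraries were alike and both treated ones far above them, with a log2 change of 1.53 (SE 0.19, edgeR BH-adjusted p = 0.000358). Mt2 had 342 and 367 CPM at 200 µM, against 197 and 196 CPM without 4sU, with a log2 change of 0.85 (SE 0.13, edgeR BH-adjusted p = 0.00266). Mt1 had 1606 and 1565 CPM at 200 µM, against 1047 and 1021 CPM without 4sU, with a log2 change of 0.62 (SE 0.12, edgeR BH-adjusted p = 0.0116). Metallothionein counts were not whole numbers in 3 of the 4 libraries, and how reads shared between near-identical genes were divided is not given by the labels, so the division between Mt1 and Mt2 is uncertain. Of the 12 zinc genes tested, 3 rose and 0 fell, and their median log2 change was 0.13, or −0.04 with low-ratio scaling (libraries scaled by TMM over only the 1844 genes of lowest ratio). With 1 library left out, 2 or 3 of them passed. The factor itself and the importers and other exporters of the list were not called.

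The promoter windows below run from 250 bases before to 50 bases after the annotated start (RefSeq, GRCm38.p6), 5′ to 3′ on the gene's strand. Capitals mark matches to the core of the metal response element, TGCACNC or TGCGCNC, on either strand, where a match on the opposite strand reads GNGTGCA or GNGCGCA. The windows lie at chr1:191906531-191906830, chr8:94178839-94179138 and chr8:94172368-94172667, all on the plus strand.
Slc30a1: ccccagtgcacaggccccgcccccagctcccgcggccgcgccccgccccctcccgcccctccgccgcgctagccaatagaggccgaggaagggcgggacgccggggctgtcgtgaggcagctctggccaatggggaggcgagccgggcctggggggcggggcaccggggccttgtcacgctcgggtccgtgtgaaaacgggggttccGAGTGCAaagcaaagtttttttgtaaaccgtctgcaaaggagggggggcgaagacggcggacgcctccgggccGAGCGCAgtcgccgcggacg
Mt1: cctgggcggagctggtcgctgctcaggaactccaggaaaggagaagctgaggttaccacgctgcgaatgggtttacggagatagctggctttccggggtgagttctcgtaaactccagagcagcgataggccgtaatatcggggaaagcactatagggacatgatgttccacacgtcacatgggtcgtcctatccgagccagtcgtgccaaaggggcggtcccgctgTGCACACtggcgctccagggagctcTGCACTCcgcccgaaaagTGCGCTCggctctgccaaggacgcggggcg
Mt2: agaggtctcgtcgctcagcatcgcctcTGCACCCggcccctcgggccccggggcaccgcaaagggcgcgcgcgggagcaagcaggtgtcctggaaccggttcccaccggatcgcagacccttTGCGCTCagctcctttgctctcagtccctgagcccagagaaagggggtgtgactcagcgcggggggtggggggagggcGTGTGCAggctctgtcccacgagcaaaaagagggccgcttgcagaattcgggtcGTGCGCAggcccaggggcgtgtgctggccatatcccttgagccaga
There were 2 matches in the Slc30a1 window, 3 in that of Mt1 and 4 in that of Mt2, and no match overlapped another. At least 1 match occurred in 25.7% of the 32851 promoter windows of this length and in 36.2% of the 10958 windows of tested genes, at least 2 matches in 7.11% and at least 3 in 1.97% of all windows. A match describes the letters only, and binding was not measured.

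The ratio was then used to divide each level at 200 µM into a labelled part (CPM times the ratio) and an unlabelled part (the remainder), both expressed as a percentage of the mean CPM without 4sU. The most probable value of the ratio (maximum a posteriori) was used. A value of 100% leaves an unlabelled part of 0% even where the 0.95 quantile lies below 100%. A total of 5658 genes had at least 100 counts in each of the 4 libraries and a ratio in both treated ones. Their median ratio was 41.2% in library A and 43.9% in library B, and the libraries differed by a median of 4.42 percentage points per gene, with overlapping 0.05 to 0.95 quantile intervals at 4926 genes (87.1%). The untreated libraries have no ratio, so its background without 4sU is unknown. Across these genes the median labelled part was 43.4% and the median unlabelled part 58.5% of the untreated level. CPM is a share of the scaled library, so a part above 100% means a larger share and not necessarily more molecules.

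Of the 262 rises, 212 had these counts and a ratio. In 38 the labelled part alone exceeded both libraries without 4sU (2.03% of the 5658 genes did so), in 94 the unlabelled part alone did (4.52%), in 80 neither did alone, and in 0 both. Taking for each part the end of the interval that makes it smallest left 32 (background 1.18%) and 77 (background 3.29%). The parts share their counts with the fold change, so these numbers describe the rises and are no separate test of them. With low-ratio scaling, which centres low-ratio genes and so lowers the treated levels, the labelled part stood above in 29 and the unlabelled part in 44.

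The 38 rises with a labelled part above the untreated level held immediate-early, growth factor, p53 and TGF-beta genes, with a median ratio of 88.5%. Their labelled part had a median of 143% and their unlabelled part one of 20.3% of the untreated level. In Nr4a1 the labelled part was 357% of the untreated level, beside an unlabelled part of 0%. Angptl4 differed from it in keeping an unlabelled part of 52.6% beside a labelled part of 246%, at ratios of 80.5% and 84.1%, and Cdkn1a likewise kept 46.4% beside 207%. Clcf1, a cytokine of the interleukin 6 family, was at 135 and 178 CPM at 200 µM, against 59.2 and 63.2 CPM without 4sU, with a log2 change of 1.36 (SE 0.21, edgeR BH-adjusted p = 0.00335) and a ratio of 100% in both libraries. Arfgap2, a GTPase-activating protein of Golgi transport, had 123 and 174 CPM at 200 µM, against 71.5 and 69.9 CPM without 4sU. Its groups did not overlap and differed by a log2 change of 1.07 (SE 0.19, edgeR BH-adjusted p = 0.00722), and at ratios of 62.6% and 60.8% its labelled part still came to 129% of the untreated level.

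Of ligands of the epidermal growth factor receptor and its feedback inhibitors, Hbegf, Errfi1 and Phlda1 were in this class. Hbegf, a membrane-shed ligand, had 123 and 114 CPM at 200 µM, against 68.8 and 59.3 CPM without 4sU, with a log2 change of 0.89 (SE 0.15, edgeR BH-adjusted p = 0.00682). Ereg, the ligand epiregulin, had too few counts for the division, with 41.3 and 30.4 CPM at 200 µM, against 18.8 and 10.9 CPM without 4sU, with a log2 change of 1.28 (SE 0.25, edgeR BH-adjusted p = 0.0124). Both treated libraries of either ligand lay above both untreated ones, and at ratios of 94.8% and 98.6% and 87.7% and 97.9% little unlabelled RNA of either was present. Errfi1, which encodes the receptor's feedback inhibitor Mig6, had 80.6 and 79.98 CPM at 200 µM, against 43.8 and 42.2 CPM without 4sU, with a log2 change of 0.90 (SE 0.16, edgeR BH-adjusted p = 0.0089). Phlda1, a gene of MAP kinase feedback, had 185 and 168 CPM at 200 µM, against 123 and 124 CPM without 4sU, with a log2 change of 0.52 (SE 0.13, edgeR BH-adjusted p = 0.04). Of the 20 tested genes of this list, 4 rose and 0 fell, with 0 to 3 rises when 1 library was left out. The list's median was 0.16, or −0.01 with low-ratio scaling, and the dual-specificity phosphatases and Sprouty genes on it did not pass.

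Of 38 tested immediate-early genes, which serum and stress switch on within minutes, 4 rose and 3 fell, and their median ratio was 94.4%. Egr3, a zinc finger transcription factor, had 71.6 and 60.8 CPM at 200 µM, against 35.1 and 28.9 CPM without 4sU, with a log2 change of 1.05 (SE 0.22, edgeR BH-adjusted p = 0.0168). Btg2, an antiproliferative gene that p53 also induces, had 15.3 and 17.8 CPM at 200 µM, against 7.94 and 7.14 CPM without 4sU, with a log2 change of 1.14 (SE 0.25, edgeR BH-adjusted p = 0.0199). Jund, an AP-1 subunit, had 72.6 and 86.4 CPM at 200 µM, against 42.8 and 43.8 CPM without 4sU, with a log2 change of 0.88 (SE 0.18, edgeR BH-adjusted p = 0.0154) and the lower ratios of 55.01% and 48.1%. The fallen members, named here after their values were seen, were Egr1, Jun and Ier5. Egr1, a relative of Egr3, had 57.8 and 54.9 CPM at 200 µM, against 87.6 and 85.3 CPM without 4sU, with a log2 change of −0.62 (SE 0.16, edgeR BH-adjusted p = 0.0378). Jun, the partner of Fos in AP-1, had 113 and 105 CPM at 200 µM, against 167 and 156 CPM without 4sU, with a log2 change of −0.57 (SE 0.14, edgeR BH-adjusted p = 0.0362). Ier5, an immediate-early response gene, had 459 and 424 CPM at 200 µM, against 641 and 658 CPM without 4sU, with a log2 change of −0.56 (SE 0.13, edgeR BH-adjusted p = 0.0277). In the fallen genes as in the risen ones the groups did not overlap, and all but Jund had ratios of 79.3% or more. The labelled part thus stood at 177% of the untreated level in Egr3 and at 61.2% in Egr1. Fos itself had 2.58 and 4.79 CPM at 200 µM, against 3.61 and 0.793 CPM without 4sU, and Myc, a growth regulator, had 9.46 and 25.98 CPM at 200 µM, against 39.9 and 20.6 CPM without 4sU. Neither passed (edgeR BH-adjusted p = 0.531 and 0.271). The list's median was 0.11, or −0.06 with low-ratio scaling, and 1 to 3 rises and 0 or 1 falls passed with 1 library left out.

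Of 25 tested p53 targets, 5 rose and 1 fell. Mdm2, the ubiquitin ligase that p53 induces and that degrades it, had 230.4 and 236 CPM at 200 µM, against 107 and 129 CPM without 4sU, with a log2 change of 0.98 (SE 0.20, edgeR BH-adjusted p = 0.0157) and a ratio of 100% in both libraries; its counts were not whole in any of the 4 libraries, and how its reads were divided is not given by the labels. With Cdkn1a, Mdm2 and Btg2, the rises comprised Ccng1 and Eda2r, named here after their values were seen. Ccng1, a cyclin induced by p53, had 131 and 141 CPM at 200 µM, against 98.8 and 77.3 CPM without 4sU, with a log2 change of 0.63 (SE 0.14, edgeR BH-adjusted p = 0.0208). Eda2r, a receptor gene, had 7.96 and 4.61 CPM at 200 µM, against 1.68 and 1.59 CPM without 4sU, with a log2 change of 1.91 (SE 0.51, edgeR BH-adjusted p = 0.0428). Bax, which permeabilises mitochondria in apoptosis, went the other way, with 39.1 and 30.4 CPM at 200 µM, against 77.5 and 71.6 CPM without 4sU and a log2 change of −1.10 (SE 0.18, edgeR BH-adjusted p = 0.00557). Bax also differed from the rises in its low ratios of 10.6% and 24.02%, with an unlabelled part of 38.99% of the untreated level. The list's median was 0.11, or −0.06 with low-ratio scaling. With 1 library left out, 1 to 4 rises and 0 or 1 falls passed.

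Skil and Pmepa1, of the TGF-beta list, and Ccl2, of the NF-kappaB list, were in this class as well. Skil, a Smad corepressor that TGF-beta induces as feedback, had 44.9 and 48.7 CPM at 200 µM, against 27.9 and 25.8 CPM without 4sU, with a log2 change of 0.81 (SE 0.17, edgeR BH-adjusted p = 0.0165). Pmepa1, another TGF-beta feedback gene, had 582 and 671 CPM at 200 µM, against 346 and 348 CPM without 4sU, with a log2 change of 0.85 (SE 0.19, edgeR BH-adjusted p = 0.0203). Skil and Pmepa1 were among the 3 rises among 26 tested entries of YAP and TGF-beta responsive genes, of which 0 fell and whose median was 0.27 (1 to 3 rises and 0 or 1 falls with 1 library left out). Ccl2, a monocyte chemokine, had 166 and 174 CPM at 200 µM, against 128 and 78.9 CPM without 4sU. The higher untreated library came near the treated ones without reaching them, and the groups differed by a log2 change of 0.73 (SE 0.19, edgeR BH-adjusted p = 0.0384). Of 20 NF-kappaB targets 3 rose and 0 fell, Ccl2, Nfkb2 and the cytokine gene Lif, with a median of 0.05. With low-ratio scaling 0 rose and 1 fell, at a median of −0.12. Most of these rises lost their call whichever of the 4 libraries was left out. Lif had few counts, with 4.73 and 6.84 CPM at 200 µM, against 2.89 and 0.793 CPM without 4sU and a log2 change of 1.72 (SE 0.47, edgeR BH-adjusted p = 0.0471), and it passed in 1 of the 10 alternative settings that gave it a value.

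The 94 rises with an unlabelled part above the untreated level had a median ratio of 17.8% and a median log2 change of 0.58. Their unlabelled part had a median of 122% and their labelled part one of 27.3% of the untreated level. The ratio itself sorted the rises into these classes, so ratios and parts differ between them by construction. Median transcript length was 1448 bases here, against 3058 bases for the 38 labelled ones. Length moved with the ratio over all genes (values below), and its part in this difference was not tested. Mif, a secreted cytokine, had 1928 and 2000.4 CPM at 200 µM, against 1156 and 1110.0 CPM without 4sU. The treated libraries lay above the untreated ones with a log2 change of 0.79 (SE 0.14, edgeR BH-adjusted p = 0.00888), and ratios of 13.6% and 14.8% left an unlabelled part of 149%. Rps6ka4, a kinase of the MAP kinase cascade, had 148 and 181 CPM at 200 µM, against 89.02 and 78.3 CPM without 4sU, with a log2 change of 0.98 (SE 0.16, edgeR BH-adjusted p = 0.00493) and an unlabelled part of 139%. Wdr83os, which encodes an endoplasmic reticulum membrane protein, had 107 and 119 CPM at 200 µM, against 57.9 and 64.4 CPM without 4sU, with a log2 change of 0.89 (SE 0.15, edgeR BH-adjusted p = 0.00533) and ratios of 21.5% and 16.5%. Abca2, a lipid transporter gene, had 79.1 and 144 CPM at 200 µM, against 46.7 and 58.3 CPM without 4sU, with a log2 change of 1.09 (SE 0.24, edgeR BH-adjusted p = 0.0208) and an unlabelled part of 169.5%. Library B was the higher by far in Abca2, and both treated libraries were clear of the untreated ones. Cuta and Pi4ka, a phosphatidylinositol kinase gene, also belonged to this class, with unlabelled parts of 146% and 129%.

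Cytosolic ribosomal protein genes, whose RNAs are short and long-lived, made up 11 of these 94. Of 81 tested, 11 rose and 0 fell, and their median was 0.37 at a median ratio of 14.1%. A log2 change above 0 was seen in 79 of the 81, and in 5932 of all 11080 tested genes, whose median was 0.03. The summed level of the ribosomal protein genes was 103830 and 101350 CPM at 200 µM, against 74664 and 87001 CPM without 4sU, and both treated libraries were above both untreated ones. Of 80 ribosomal protein genes with a ratio, 36 had an unlabelled part above the untreated level in both treated libraries. Of all 5658 genes 256 did so (4.52%), and of the 836 genes with a ratio of 20% or less 201 did. The median kept its sign in every setting, but the number of rises was 1 with low-ratio scaling and 0 or 1 with 1 library left out. Length and ratio moved with the fold across all genes (values below), and their part in these rises was not tested.

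Secreted and matrix proteins showed 3 rises and 0 falls among 36 tested genes, beside rises in 2.36% of all tested genes. Their median log2 change was 0.22 at a median ratio of 22.6%. All genes of a similar ratio (median 20.2%, bin 2 of the 10 described below) had a median of 0.20. Timp1, an inhibitor of matrix metalloproteinases, had 541 and 636 CPM at 200 µM, against 348 and 349 CPM without 4sU, with a log2 change of 0.75 (SE 0.14, edgeR BH-adjusted p = 0.00966), and unlabelled RNA of 115%. Col6a2, a chain of collagen VI, had 126 and 96.9 CPM at 200 µM, against 70.5 and 77.9 CPM without 4sU, with a log2 change of 0.58 (SE 0.14, edgeR BH-adjusted p = 0.0356) and ratios of 8.84% and 10.5%. Mmp2, a gelatinase, had 778 and 741 CPM at 200 µM, against 579 and 533 CPM without 4sU, with a log2 change of 0.45 (SE 0.12, edgeR BH-adjusted p = 0.0435). No group of these 3 genes overlapped its counterpart. With 1 library left out 0 or 1 of them passed, and with low-ratio scaling 1 rose and 1 fell. Glycolytic enzymes had a median of 0.29 over 19 tested genes, with 0 calls by edgeR (10 at an unadjusted p under 0.05, and 1 called by DESeq2). Actin and serum response factor genes had a median of 0.09 (−0.08 with low-ratio scaling) over 25 genes, also with 0 calls by edgeR (6 at an unadjusted p under 0.05, and 1 called by DESeq2).

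In the 80 rises where neither part alone exceeded the untreated level, the median ratio was 40.4%, with a labelled part of 63.3% and an unlabelled part of 92.5%. Tubb6, a beta-tubulin, had 245 and 378 CPM at 200 µM, against 136 and 147 CPM without 4sU. Library B was the higher, the groups did not overlap and differed by a log2 change of 1.14 (SE 0.21, edgeR BH-adjusted p = 0.00966). With ratios of 41.8% and 42.2%, Tubb6 reached 127% of the untreated level in its unlabelled part, but only 1 of the 2 treated libraries was above. Of 13 tested tubulins 2 rose, Tubb6 and Tubb2b, 0 fell, and the median was 0.30 (0 or 1 rises with 1 library left out). Mt2 and Mt1 belonged here too, with labelled parts of 107% and 69.3% and unlabelled parts of 73.5% and 84.1%. Prrx2, a homeobox gene of mesenchyme, had 97.2 and 101 CPM at 200 µM, against 53.7 and 61.1 CPM without 4sU, with a log2 change of 0.79 (SE 0.14, edgeR BH-adjusted p = 0.00893) and ratios of 37.96% and 35.5%.

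**Figure D3:**
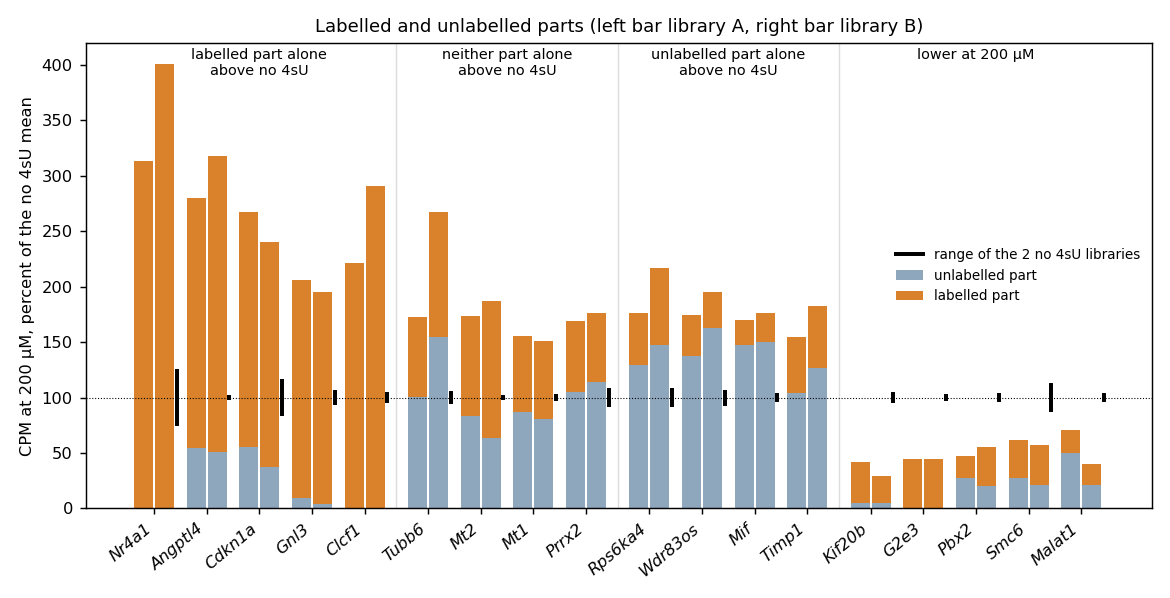
Level at 200 µM 4sU of 18 genes as a percentage of the mean without 4sU, split into an unlabelled part (grey-blue) and a labelled part (orange), with library A as the left and library B as the right bar; black bars give the range of the 2 libraries without 4sU. The orange part alone rises above the untreated range in the first group, the grey-blue part alone in the third, and in the falls at the right both together stay below it.

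A further 50 rises lacked the counts or the ratio for this division, Slc30a1 among them with its lowest library at 78 counts. The deposited ratio of Slc30a1 was 99.6% and 100%, and its labelled part came to 288% of the untreated level. One of the 14 largest rises in this set was Gcnt4, a glycosyltransferase that branches O-glycans, at 35.8 and 33.3 CPM at 200 µM, against 10.3 and 14.9 CPM without 4sU with a log2 change of 1.44 (SE 0.22, edgeR BH-adjusted p = 0.00393). Hmox1, heme oxygenase, was another, at 13.98 and 19.2 CPM at 200 µM, against 6.74 and 7.14 CPM without 4sU with a log2 change of 1.26 (SE 0.27, edgeR BH-adjusted p = 0.0186). Gse1 had 20.6 and 27.5 CPM at 200 µM, against 9.62 and 7.93 CPM without 4sU, with a log2 change of 1.47 (SE 0.24, edgeR BH-adjusted p = 0.00493). Dlk2, a membrane protein related to Notch ligands, had 10.9 and 17.4 CPM at 200 µM, against 4.57 and 6.34 CPM without 4sU, with a log2 change of 1.36 (SE 0.30, edgeR BH-adjusted p = 0.0208). In all 4 the groups were apart.

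Of the 154 falls, 97 had the counts and a ratio, with a median ratio of 67.6% in library A and 67.7% in library B. Their labelled part had a median of 42.1% and their unlabelled part one of 18.8% of the untreated level. The unlabelled part across the 5658 genes had a median of 58.5%, as given above. The median transcript length was 5025 bases among the 154 falls, against 2522 bases among the rises and 3385 bases over all tested genes. In 32 of the falls the ratio was 80% or more, with parts of 52.2% and 7.44%, and in 65 it was lower, with parts of 34.9% and 24.3%.

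Hoxc6, Fam208a, Arid4a, Pcgf5, Runx1t1 and Ost4 were others of the 14 largest falls. Hoxc6, a homeobox gene of anterior-posterior patterning, had 6.67 and 3.93 CPM at 200 µM, against 18.8 and 17.8 CPM without 4sU, with a log2 change of −1.81 (SE 0.36, edgeR BH-adjusted p = 0.0137). Fam208a, which takes part in HUSH-mediated silencing of chromatin, had 7.96 and 11.6 CPM at 200 µM, against 23.8 and 28.7 CPM without 4sU, with a log2 change of −1.41 (SE 0.33, edgeR BH-adjusted p = 0.0272). Arid4a, a retinoblastoma-binding protein gene, had 16.3 and 14.5 CPM at 200 µM, against 32.96 and 36.9 CPM without 4sU, with a log2 change of −1.18 (SE 0.20, edgeR BH-adjusted p = 0.00682). Pcgf5, a Polycomb ring finger gene, had 13.01 and 15.3 CPM at 200 µM, against 31.04 and 29.8 CPM without 4sU, with a log2 change of −1.09 (SE 0.22, edgeR BH-adjusted p = 0.0128). Runx1t1, a corepressor gene, had 17.8 and 21.7 CPM at 200 µM, against 44.5 and 40.1 CPM without 4sU, with a log2 change of −1.09 (SE 0.23, edgeR BH-adjusted p = 0.0155). In each of the 5 genes both treated libraries were below both untreated ones. Ost4, a small subunit of the oligosaccharyltransferase, had 23.2 and 27.1 CPM at 200 µM, against 91.5 and 37.3 CPM without 4sU, with a log2 change of −1.34 (SE 0.32, edgeR BH-adjusted p = 0.0327), where a single untreated library held most of the difference. Smc6, of the complex that resolves recombination intermediates, and Adamts5, an aggrecan-cleaving protease, were among the falls of middle ratio. Smc6 had 98.3 and 91.4 CPM at 200 µM, against 141 and 178 CPM without 4sU, with a log2 change of −0.75 (SE 0.14, edgeR BH-adjusted p = 0.00966). Adamts5 had 33.1 and 41.2 CPM at 200 µM, against 75.7 and 72.6 CPM without 4sU, with a log2 change of −0.99 (SE 0.17, edgeR BH-adjusted p = 0.00557).

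Mitosis and spindle genes showed 0 rises and 5 falls among 38 tested, with a median of −0.18 (9 falls and −0.35 with low-ratio scaling). Beside Kif20b these included Knl1, which builds the outer kinetochore, at 16.7 and 16.2 CPM at 200 µM, against 37.4 and 30.7 CPM without 4sU, with a log2 change of −1.04 (SE 0.22, edgeR BH-adjusted p = 0.0186). Ttk, the spindle checkpoint kinase Mps1, had 18.9 and 18.1 CPM at 200 µM, against 35.6 and 32.1 CPM without 4sU, with a log2 change of −0.87 (SE 0.21, edgeR BH-adjusted p = 0.0292). Ect2, which activates RhoA in cytokinesis, had 43.9 and 45.1 CPM at 200 µM, against 78.2 and 64.6 CPM without 4sU, with a log2 change of −0.68 (SE 0.16, edgeR BH-adjusted p = 0.0285). Kif14, the fifth, named here after its values were seen, had 48.8 and 45.3 CPM at 200 µM, against 59.9 and 102 CPM without 4sU, with a log2 change of −0.79 (SE 0.21, edgeR BH-adjusted p = 0.0424). Treated libraries were the lower ones in all 5 genes. In bulk RNA, fewer cells in a phase and less RNA per cell cannot be told apart. With 1 library left out 1 or 2 of the falls passed, and genes of DNA replication and S phase had 0 calls among 42 by edgeR (7 at an unadjusted p under 0.05) and 0 by DESeq2, with a median of 0.01, or −0.16 with low-ratio scaling.

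Genes of RNA metabolism gave few calls. Mettl14, a subunit of the N6-methyladenosine writer, had 7.96 and 12.5 CPM at 200 µM, against 20.7 and 26.8 CPM without 4sU, with a log2 change of −1.20 (SE 0.27, edgeR BH-adjusted p = 0.0236). Zc3h13, which anchors the writer in the nucleus, had 58.7 and 46.8 CPM at 200 µM, against 80.1 and 91.3 CPM without 4sU, with a log2 change of −0.70 (SE 0.17, edgeR BH-adjusted p = 0.0293). These were the 2 falls, beside 0 rises, among 18 tested writers, readers and erasers, and with 1 library left out 0 or 1 passed. Malat1, a nuclear long noncoding RNA, had 1642 and 931 CPM at 200 µM, against 2272 and 2368 CPM without 4sU, with a log2 change of −0.85 (SE 0.19, edgeR BH-adjusted p = 0.0248). Its 2 treated libraries differed more from each other than the untreated ones did, its ratios of 29.1% and 46.7% differed too, and its counts were not whole in any of the 4 libraries. Neat1, the scaffold of paraspeckles, had 1627 and 1574 CPM at 200 µM, against 1345 and 1599 CPM without 4sU and did not pass (edgeR BH-adjusted p = 0.643). Clk kinases and SR splicing factors had 0 calls among 18 by edgeR (1 at an unadjusted p under 0.05) and 0 by DESeq2. Of 44 nucleolar and ribosome biogenesis factors 3 rose, Gnl3, Pes1 and Nhp2, and 1 fell, the RNA helicase gene Ddx10 (all tested genes: 2.36% and 1.39%). Pes1, needed for the large subunit, had 81.6 and 67.7 CPM at 200 µM, against 51.00 and 46.7 CPM without 4sU, with a log2 change of 0.61 (SE 0.15, edgeR BH-adjusted p = 0.0348). Ddx10 had 27.4 and 23.3 CPM at 200 µM, against 45.8 and 42.6 CPM without 4sU, with a log2 change of −0.80 (SE 0.17, edgeR BH-adjusted p = 0.0155). The list's median ratio was 55.9% and its median log2 change 0.17, or −0.0011 with low-ratio scaling, where 1 rose and 2 fell. With the usual scaling 1 or 2 rises passed with 1 library left out, Gnl3 each time.

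Other stress programmes gave few calls, and with 1 library left out 0 of the 4 named next passed. The integrated stress response showed 1 rise among 23 genes, Shmt2, a mitochondrial serine enzyme, at 540.2 and 620.5 CPM at 200 µM, against 408 and 319 CPM without 4sU with a log2 change of 0.68 (SE 0.17, edgeR BH-adjusted p = 0.0367). Heat shock genes showed 1 among 19, the small chaperone Cryab at 240.5 and 255 CPM at 200 µM, against 176 and 154 CPM without 4sU with a log2 change of 0.59 (SE 0.15, edgeR BH-adjusted p = 0.0357). Among 20 genes of endoplasmic reticulum stress Calr, a lectin chaperone, rose at 1855 and 2092 CPM at 200 µM, against 1384 and 1355 CPM without 4sU with a log2 change of 0.53 (SE 0.13, edgeR BH-adjusted p = 0.0356). Herpud1, a factor of protein degradation there, fell at 48.2 and 45.3 CPM at 200 µM, against 84.2 and 69.9 CPM without 4sU with a log2 change of −0.72 (SE 0.16, edgeR BH-adjusted p = 0.0208). With low-ratio scaling the integrated stress response had 0 rises and 2 falls, at a median of −0.28. Endoplasmic reticulum stress then had 0 rises and 3 falls (median −0.12), and heat shock 0 of either (median −0.09). By edgeR, interferon response genes had 0 calls among 13 (1 at an unadjusted p under 0.05), cholesterol synthesis 0 among 23 (5) and small nucleolar RNA host genes 0 among 5 (1), and DESeq2 called 0 in these 3 lists. Of 19 lipid genes linked to PPAR receptors, Angptl4 rose and Acsl3, an acyl-CoA synthetase, fell (63.97 and 66.1 CPM at 200 µM, against 89.98 and 104 CPM without 4sU). Uridine uptake, salvage and pyrimidine synthesis had 2 rises among 20. These were the thymidine kinase Tk1 (201 and 234 CPM at 200 µM, against 156 and 139 CPM without 4sU) and the nucleoside diphosphate kinase Nme2 (1158 and 891 CPM at 200 µM, against 655 and 730.1 CPM without 4sU). Neither kept its call when any of the 4 libraries was left out. Zinc finger genes with a Zfp symbol had 0 rises and 4 falls among 298, with a median of −0.07 at a median ratio of 81.2%, beside falls in 1.39% of all tested genes. With low-ratio scaling 12 fell, and the median was −0.24. The largest of them, Zfp367, had 27.95 and 28.03 CPM at 200 µM, against 70.01 and 56.9 CPM without 4sU, with a log2 change of −1.18 (SE 0.19, edgeR BH-adjusted p = 0.00493), and 0 or 1 of the list passed with 1 library left out. Actb, a reference gene, had 17607 and 14357 CPM at 200 µM, against 16460.0 and 16005 CPM without 4sU and did not pass (edgeR BH-adjusted p = 0.951).

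Across genes the fold followed the ratio. The Spearman correlation over the 5658 genes was −0.26 in library A and −0.29 in library B, a description over genes that share their libraries and are not independent replicates. By the same measure length correlated with the fold at −0.20 over the tested genes and with the ratio at 0.41. The genes were put in 10 bins of equal size by their ratio, bin 1 being the lowest. In bin 1 (median 13.6%) the median log2 change was 0.25, with 45 rises and 0 falls, and bin 9 (median 78.3%) had −0.06, with 12 rises and 26 falls. In bin 10 (median 92.4%) the median was −0.02, and the calls were about even, with 22 rises and 21 falls. Fixed cells at the same dose, with libraries of their own on both sides, had medians of 0.12 in bin 1, −0.12 in bin 9 and −0.11 in bin 10. The part of length, ratio or scaling in these medians was not tested.

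**Figure D4:**
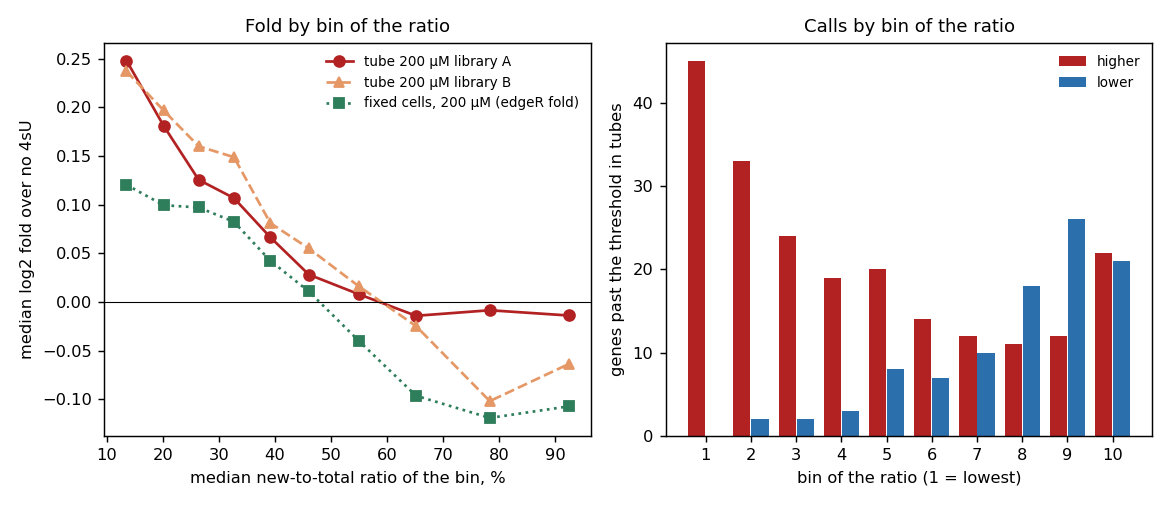
Left, median log2 fold over no 4sU in 10 bins of the new-to-total ratio for 200 µM library A and B in tubes and for fixed cells; right, the number of genes past the threshold in each bin in tubes. Medians are highest in bin 1 in all 3 lines, rises crowd into bin 1 (45) and falls into bin 9 (26).

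Scaling sets where the line between rises and falls runs. The TMM factors were 1.02 and 1.03 at 200 µM, against 1.15 and 1.10 without 4sU. With low-ratio scaling the median of all genes moved by −0.17, and 85 genes rose and 450 fell. All 85 were among the 262, and all 154 falls remained. Of the 38 rises with a labelled part above the untreated level 22 still passed, of the 94 with an unlabelled part above it 19, and of the 80 with neither 20. This scaling centres genes of low ratio, whose median fold was positive with the usual scaling, so folds move down. That rises are lost and falls kept is thus built in, and the counts by class are no test of the classes.

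The same dose in fixed cells was measured in libraries that the tube comparison does not use. There 27 genes rose (0.244%) and 63 fell (0.569%), 90 in all (0.812%), and 2 to 9 passed when 1 of the 4 fixed-cell libraries was left out. The tubes shared 16 of the rises, which is 6.11% of the tube rises and 59.3% of the fixed-cell rises, and 19 of the falls, 12.3% and 30.2%. Both fixed 200 µM libraries lay above both fixed libraries without 4sU at 156 of the 262 tube rises (59.5%, background 24.1%) and below at 102 of the 154 falls (66.2%, background 25.1%). By class, this held for 26 of the 38 rises with a labelled part above the untreated level (68.4%, background 30.3% among genes with a ratio), 50 of the 94 with an unlabelled part above it (53.2%) and 49 of the 80 others (61.3%). Of these, 12, 0 and 1 passed the test in fixed cells. Among falls with a ratio of 80% or more, 29 of 32 were lower in fixed cells (90.6%, background 23.2%) and 11 passed, against 40 of 65 (61.5%) and 6 among the other falls. The backgrounds by class are over all genes with a ratio and are not matched on it. Fixed-cell medians were 0.12 in bin 1, against −0.12 and −0.11 in bins 9 and 10. The part of the ratio in this agreement was not tested.

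Shared rises included Nr4a1, Angptl4, Cdkn1a, Ereg, Hbegf, Egr3, Mt2, Skil and Ccl2. In fixed cells Angptl4 had 104 and 128 CPM at 200 µM, against 56.4 and 50.9 CPM without 4sU, with a log2 change of 1.11 (SE 0.14, edgeR BH-adjusted p = 0.00134). The groups were apart, as in the tubes. Ereg had a log2 change of 1.28 in tubes beside 1.52 in fixed cells, and Hbegf 0.89 beside 1.10. Shared falls included Lurap1l, Pbx2, Adamts5 and Herpud1, and Lurap1l had 47.7 and 41.7 CPM at 200 µM, against 90.1 and 90.9 CPM without 4sU, with a log2 change of −1.02 (SE 0.15, edgeR BH-adjusted p = 0.00328). Irs1, an insulin receptor substrate gene, and Rgma, a co-receptor of bone morphogenetic proteins, named here after their values were seen, also fell in both. Irs1 had 30.96 and 42.6 CPM at 200 µM, against 55.3 and 67.6 CPM without 4sU in tubes, with a log2 change of −0.74 (SE 0.17, edgeR BH-adjusted p = 0.0272). Rgma had 29.7 and 22.2 CPM at 200 µM, against 52.7 and 49.6 CPM without 4sU, with a log2 change of −0.98 (SE 0.20, edgeR BH-adjusted p = 0.0137). Both genes were lower in each treated library.

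Other tube changes were not called in fixed cells. Gnl3 had 262 and 283 CPM at 200 µM, against 249.7 and 218 CPM without 4sU there, with a log2 change of 0.22 (SE 0.14, edgeR BH-adjusted p = 0.541). Slc30a1 had 28.7 and 36.7 CPM at 200 µM, against 25.2 and 18.9 CPM without 4sU, with a log2 change of 0.58 (SE 0.18, edgeR BH-adjusted p = 0.167). Kif20b had 25.8 and 21.9 CPM at 200 µM, against 27.1 and 26.5 CPM without 4sU, with a log2 change of −0.17 (SE 0.19, edgeR BH-adjusted p = 0.758). Each kept its direction, and in each the groups did not overlap. Clcf1, at −0.02, Arid4a, at 0.01, and Anxa11, an annexin gene, at −0.01, had folds near 0 in fixed cells. No gene passed the test of the difference between the procedures by edgeR (0 of 11080, smallest BH-adjusted p = 0.147), while 993 genes (8.96%) had an unadjusted p under 0.05 and DESeq2 called 9. Of the 416 tube calls 197 had an unadjusted p under 0.05 for the difference. The difference contains the tube fold by which these genes were called. A share above that of all genes is thus built in at least in part, and is no evidence of a difference. The smallest p-values for the difference were those of Slc16a1, Nfkb2 and Kif20b, and no change is therefore called particular to tubes.

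**Figure D5:**
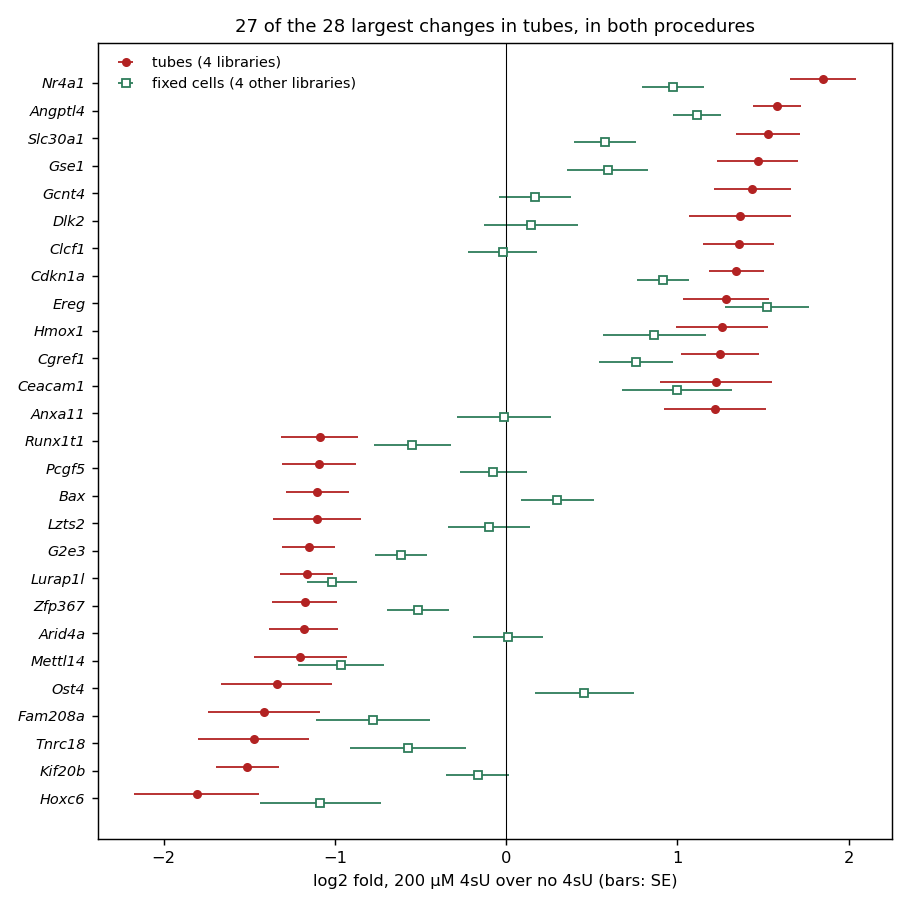
Log2 fold of 27 of the 28 largest changes in tubes (red, with SE) beside the fold of the same genes in fixed cells (green squares, with SE), 4 libraries each. Ereg is the 1 rise with a larger fold in fixed cells, Clcf1 and Anxa11 sit at 0 there, and Bax, Ost4 and Arid4a lie at or above 0 although they fell in tubes.

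At 800 µM in tubes, against the same untreated libraries, the 10 genes named above as passing in every setting had folds that are set beside those at 200 µM without a comparison. The log2 change was 1.85 at 200 µM and 1.93 at 800 µM for Nr4a1, 1.58 and 1.31 for Angptl4, and 1.34 and 1.42 for Cdkn1a. At the same doses it was 1.53 and 1.29 for Slc30a1, 1.01 and 0.82 for Gnl3, and 0.85 and 0.71 for Mt2. Of the falls, G2e3 had −1.15 and −1.02, Lurap1l −1.16 and −1.12, Pbx2 −0.95 and −0.85, and Kif20b −1.51 and −0.60.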

How the data were processed

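One deposited table was used. For every gene and library it holds the authors' expected counts (per the file headers and the decimals, since 16.2% to 22.0% of a library's values were not whole), which were rounded before testing. Its new-to-total ratio is a fraction, deposited as a maximum a posteriori value, a posterior mean and 0.05 and 0.95 quantiles. Alpha and beta, deposited as scores that describe the beta distribution behind it, were not used further. STAR 2.7.10b, Bowtie2 2.3.0 and cutadapt are listed in the submitters' processing notes, without their roles. The labels used here name no counter, genome build or annotation. Gene IDs were matched to GENCODE M21, where 15185 of 15217 were found. Length is the deposited value.

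Genes were kept by filterByExpr (minimum count 10, minimum total 15), which left 11080 genes with at least 99.92% of each library's counts. The test was the quasi-likelihood F test of edgeR 4.0.16 (R 4.3.3, TMM scaling, BH at 0.05), in 1 fit of 12 libraries in 6 groups, which share 1 estimate of the spread (common biological coefficient of variation 12.3%, residual degrees of freedom 6). Replicates within a group had log counts correlated at 0.974 to 0.984, and none were within sampling noise of each other. Their chi-square per degree of freedom was 21.9 in fixed cells at 800 µM, against 3.17 to 6.88 in the other groups. That noisiest pair is in the fit behind every p-value, and calls from the 4 libraries or the 6 tube libraries alone are given below. Alternatives were other scalings, no filter, DESeq2 1.42.0, fewer libraries in the fit, a replicate block and each library left out, and for the parts other values of the ratio and another minimum count.

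The members and the gene lists were chosen with earlier results of these data known. Genes named in the text were the 14 largest rises and 14 largest falls among called genes averaging at least 50 counts, up to 4 called members per list, the 4 with the smallest p in each of 3 ratio classes, up to 6 rises led by unlabelled RNA, 3 genes of the difference between procedures, and a few fixed reference genes. Those named after their values were seen are marked in the text. A few genes that this rule selects are not reported here.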

Additional observations from a re-analysis of the deposited data

Results flagged for a closer look

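Of the 262 tube rises, 13 had both fixed 200 µM libraries below both fixed libraries without 4sU (4.96%, background 25.1%), and of the 154 tube falls 8 had both above (5.2%, background 24.1%). Among the genes named by rule, 3 were of this kind: the 200 µM libraries of the 2 procedures lay on opposite sides of their own untreated libraries, with no overlap in either procedure. Nfkb2, a subunit of NF-kappaB, had 71.4 and 74.7 CPM at 200 µM, against 48.7 and 41.04 CPM without 4sU, in tubes. In fixed cells Nfkb2 had 71.4 and 77.1 CPM at 200 µM, against 100.1 and 91.3 CPM without 4sU, and the difference between the procedures, tubes minus fixed cells, was 1.07 on the log2 scale (edgeR BH-adjusted p = 0.147). Tk1, the thymidine kinase of the salvage route, had 201 and 234 CPM at 200 µM, against 156 and 139 CPM without 4sU, in tubes. In fixed cells Tk1 had 284 and 379 CPM at 200 µM, against 415 and 381 CPM without 4sU, and the difference was 0.82 (edgeR BH-adjusted p = 0.273). Slc16a1, a lactate transporter gene, fell in tubes with 63.9 and 65.5 CPM at 200 µM, against 106 and 88.8 CPM without 4sU. In fixed cells Slc16a1 had 97.6 and 76.99 CPM at 200 µM, against 55.8 and 61.7 CPM without 4sU, and the difference was −1.16 (edgeR BH-adjusted p = 0.147). None of the 3 differences passed the test over all genes, in which 0 genes passed by edgeR (993 had an unadjusted p under 0.05, and DESeq2 called 9).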

How the results depend on the processing

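Against 416 calls in tubes at 200 µM, 391 were made with DESeq2 size factors in edgeR (379 of the 416 among them), 540 with DESeq2 (392), 383 with the 4 libraries alone (297) and 600 with the 6 tube libraries (391). Without a filter the count was 854 (481 higher and 373 lower). Low-ratio scaling gave 85 higher and 450 lower, the 4 libraries alone 167 higher, and the 6 tube libraries 296 lower. With 1 library left out the counts ran from 18 to 210 in all, 10 to 131 higher and 8 to 79 lower, and a group with 1 library left was assumed to vary like the others. The replicate letters did not pair the samples (correlations of deviations between −0.11 and 0.11), and a replicate block gave 221 calls, 136 higher and 85 lower. In fixed cells the 90 calls became 208 with low-ratio scaling, 252 without a filter, 58 with the replicate block and 2 to 82 with 1 library of either procedure left out. For the difference between procedures the 0 calls became 76 without a filter, 9 with DESeq2 and 0 to 3 with 1 library left out. Rises led by unlabelled RNA numbered 44 instead of 94 with low-ratio scaling, which centres genes of low ratio. The log2 change of Gapdh (0.03) was −0.14 with that scaling, −0.015 with the 4 libraries and −0.013 with the 6 tube libraries, and ran from −0.25 to 0.31 with 1 library left out. That of Actb (−0.02) ran from −0.17 to 0.12 with 1 left out, and that of Neat1 (0.12) was −0.048 with low-ratio scaling. The cause of these changes was not tested. Over the 88 named genes and 11 alternatives, of which DESeq2 gave no adjusted p for Fos and Lif, 671 values kept their side of the threshold, 287 lost it, 1 gained it and 7 changed sign. The 4 libraries held 3629634 to 5676517 counts, and genes of few counts had the larger errors (SE 0.47 for Lif and 0.13 for Mt2).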
